A study of Arabidopsis thaliana with 8 samples.

Results

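The 10 genes described here encode extensins, the rod-like structural glycoproteins of the plant cell wall. They are EXT3 (AT1G21310) and 9 further proline-rich extensin genes, picked by gene identifier from the 24279 genes listed in the tables: EXT4 (AT1G76930), AT2G43150, AT1G26240, HRGP1 (AT3G54590), AT3G54580, EXT6 (AT2G24980), AT5G06630, EXT10 (AT5G06640) and EXT12 (AT4G13390). Expression was measured by RNA sequencing of Arabidopsis thaliana roots from 6-day-old seedlings, wild type Col or the cml24-2 line, after 6 h in nutrient solution at pH 5.0 with 10 µM AlCl3 or with none. Each of the 4 groups (wild type control, wild type Al, cml24-2 control, cml24-2 Al) has 2 libraries, and all seedlings shared the same pre-growth in nutrient solution. The labels speak of pooled seedlings and name no separate cultures for the pair of libraries in a group, so each p-value rests on a spread that may be technical. CML24 encodes a calmodulin-like protein, and cml24-2 is 1 mutant line of that gene; what its allele does to the transcript is not given in the sources used here.

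Extensins carry repeats of a serine followed by a run of prolines. The prolines are hydroxylated and then decorated with short arabinose chains, the serines with galactose, and tyrosine motifs between the repeats allow wall peroxidases to link the proteins into a network. EXT3, also called RSH, is required in Arabidopsis embryos for correct placement of new cross walls. Other extensins are known as products of growing root hairs, and genes such as EXT4 are known to be induced by wounding and other stresses. In root tips, a short exposure to Al stops elongation, and the cell wall is a main site where Al binds.

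The members differ in how the repeats are built. The 4 coding stretches below show this difference, each 120 bases read 5′ to 3′ on the coding strand, from the RefSeq annotation of assembly TAIR10.1, with capitals marking a serine codon and the next 4 proline codons. They lie at chr1:7454773-7454892 (EXT3, minus strand), chr1:28896650-28896769 (EXT4, minus strand), chr1:9079313-9079432 (AT1G26240, minus strand) and chr2:10622666-10622785 (EXT6, plus strand).
EXT3: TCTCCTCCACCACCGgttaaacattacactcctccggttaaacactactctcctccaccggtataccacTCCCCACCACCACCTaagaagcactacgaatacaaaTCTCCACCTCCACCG
EXT4: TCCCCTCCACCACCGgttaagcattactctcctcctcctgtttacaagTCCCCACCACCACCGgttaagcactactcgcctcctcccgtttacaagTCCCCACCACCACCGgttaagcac
AT1G26240: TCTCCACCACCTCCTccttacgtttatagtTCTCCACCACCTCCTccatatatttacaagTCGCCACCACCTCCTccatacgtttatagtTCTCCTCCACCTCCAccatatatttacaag
EXT6: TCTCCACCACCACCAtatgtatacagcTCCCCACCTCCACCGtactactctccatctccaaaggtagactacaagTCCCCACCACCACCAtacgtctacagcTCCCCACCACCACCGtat
The stretches of EXT3 and EXT4 hold 3 repeats each, and those of AT1G26240 and EXT6 hold 4.

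Over the whole protein, EXT3 is 431 residues long with 28 such repeats, and 12 of its tyrosine motifs have the form Tyr-Val-Tyr. EXT4 is 293 residues long in the transcript richest in repeats, with 9 repeats and no Tyr-Val-Tyr. AT2G43150, the shortest at 212 residues, has 22 repeats and 1 Tyr-Val-Tyr. AT1G26240 has 41 repeats in 478 residues, 40 of them with 5 or more prolines, and 39 Tyr-Val-Tyr motifs. The remaining 6 proteins, of 429 (EXT12) to 957 (AT3G54580) residues, have 22 to 68 repeats and 9 to 33 Tyr-Val-Tyr motifs. Aligned over the shorter protein, EXT6 and AT5G06630 are 96.8% identical, HRGP1 and AT3G54580 are 94.8%, and AT5G06630 and EXT10 are 93.4%. EXT12 is further off, at 77.4% to 81.6% with the other 5, which is no closer than AT1G26240 is to AT3G54580 (82.4%). These 6 genes, HRGP1 to EXT12 in the list above, are called the HRGP1 group below, a set drawn for description after the values had been seen and not defined by sequence.

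Members also lie near each other and near other genes. HRGP1 and AT3G54580 are transcribed away from each other on chromosome 3 with 2208 bases between them, and AT5G06630 and EXT10 follow each other on chromosome 5, 1742 bases apart. EXT3 overlaps the uncharacterized gene AT1G21313 on the opposite strand by 522 bases, and EXT10 overlaps AT5G06645, annotated as a gibberellin-regulated-like protein, by 692 bases. Of the 50-base words in the transcripts, 25.4% of those of EXT3 and 23.9% of those of EXT10 also occur in another gene on either strand, nearly all in the overlapping one. The share is 2.9% to 4.4% for HRGP1, AT3G54580, EXT6 and AT5G06630, and it is 0 for EXT4, AT2G43150, AT1G26240 and EXT12. A share of 0 does not mean that no reads were split between genes. Expected counts of AT1G26240 and EXT12 were fractional in all 8 libraries, those of EXT4 in 5 and those of AT2G43150 in 1. Whether reads were assigned by strand is not given in the sources used here, so it is not known whether reads of an overlapping pair were told apart. Expected counts of AT1G21313 were whole numbers in each library, while those of AT5G06645 were fractional. The expected count of AT1G21313 was 0.617 to 0.735 times that of EXT3 in each library, and that of AT5G06645 was 2.317 to 4.875 times that of EXT10.

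Promoter windows of 250 bases before the annotated start are printed for 3 of the members that fell with Al in both genotypes, because EXT6 and AT5G06630 share a long word with each other and with further members, and AT3G54580 shares another with HRGP1. Capitals mark TG, then any 4 or 5 bases, then CACG, on either strand, a pattern that was chosen after the sequences had been seen. The run of capitals in AT3G54580 is 2 matches that abut, on the minus and then the plus strand, starting 67 and 57 bases before the gene's start. The windows are chr2:10622146-10622395 (EXT6, plus strand), chr5:2037856-2038105 (AT5G06630, minus strand) and chr3:20203920-20204169 (AT3G54580, minus strand), from RefSeq, TAIR10.1.
EXT6: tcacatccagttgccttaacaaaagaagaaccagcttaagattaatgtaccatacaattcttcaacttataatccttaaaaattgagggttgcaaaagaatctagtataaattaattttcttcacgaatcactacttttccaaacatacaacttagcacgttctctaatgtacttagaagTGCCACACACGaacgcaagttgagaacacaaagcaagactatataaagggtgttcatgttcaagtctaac
AT5G06630: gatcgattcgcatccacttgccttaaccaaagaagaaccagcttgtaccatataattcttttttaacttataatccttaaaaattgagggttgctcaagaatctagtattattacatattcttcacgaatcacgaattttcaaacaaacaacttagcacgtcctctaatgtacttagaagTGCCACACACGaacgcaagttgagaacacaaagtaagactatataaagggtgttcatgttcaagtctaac
AT3G54580: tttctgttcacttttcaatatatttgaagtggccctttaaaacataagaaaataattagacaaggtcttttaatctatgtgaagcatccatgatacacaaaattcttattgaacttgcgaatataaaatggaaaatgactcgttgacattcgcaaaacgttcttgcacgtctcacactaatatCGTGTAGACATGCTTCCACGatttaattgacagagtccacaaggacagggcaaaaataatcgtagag
The windows of EXT6 and AT5G06630 are 85.8% identical over their whole length, and those of HRGP1 and AT3G54580 are 62.1% identical.

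The capital pattern was present in 7 of the 10 member windows: those of HRGP1, AT3G54580, EXT6, AT5G06630, EXT10, EXT12 and, on the other strand, AT2G43150. It was present in 9.02% of the windows of all 27443 protein-coding genes. EXT6, AT5G06630, EXT10 and EXT12 share the 16-base word AAGTGCCACACACGAA, which is found in 6 windows of the genome, the other two being those of the extensin genes AT4G08400 and AT4G08410. HRGP1 and AT3G54580 share a 19-base word found in no other window. The letters CACGTG and the root hair element RHE were searched on both strands and are in 0 of the 10 member windows, against 6.49% and 0.75% of all windows. The capital pattern is the inner part of RHE, with its flanking bases and its G or T before CACG left free. The 7 windows that hold the capital pattern did not match RHE in full. A match describes the letters only.

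The libraries were even in size. Summed expected counts (read numbers estimated per gene, which can be fractional where reads match several genes) ran from 11743433 to 12188917. At these sizes 3 counts equal 0.246 to 0.255 CPM (counts scaled to library size). The 10 members took 1.95% to 3.11% of all counts. All 10 passed the filter on low counts, which left 20262 genes for testing. The targeted gene CML24, listed under its synonym TCH2, had expected counts of 549 and 1238 in wild type control, 522 and 454 in wild type Al, 2258 and 1405 in cml24-2 control, and 1569 and 1136 in cml24-2 Al. Its count was thus not lower in the libraries labelled cml24-2, and this level does not check the labels. Of the marker lists, summed FPKM (fragments per kilobase of transcript, scaled to library size) of 5 root tissue genes was 293 and 240.7 in wild type control, 77.9 and 70.6 in wild type Al, 170.2 and 180.1 in cml24-2 control, and 51.2 and 52.1 in cml24-2 Al. All 5 fell with Al in both genotypes by edgeR, and without Al 3 were higher and 1 lower in cml24-2, the lower one being TIP2;3, at 135 and 91.0 FPKM in wild type and 26.6 and 24.0 in cml24-2. Of all tested genes, 25.9% fell with Al in wild type and 23.3% in cml24-2, and without Al 7.41% were higher and 5.5% lower in cml24-2. The part of root tissue makeup in the extensin results was not tested. None of the root, epidermis or shoot markers was below 0.1 FPKM in all libraries. Summed FPKM of 4 shoot photosynthesis genes was 29.0 and 71.0 in wild type control, 22.7 and 6.4 in wild type Al, 86.2 and 119.5 in cml24-2 control, and 52.8 and 60.6 in cml24-2 Al, and its part in any result was not tested.

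EXT3 was the most abundant member without Al, per length of transcript. Mean FPKM in wild type control, with the SD of n = 2 libraries, was 7574 ± 1499 for EXT3, 4121 ± 982 for AT2G43150, 769 ± 282 for AT3G54580, 449 ± 196 for HRGP1 and 301 ± 138 for EXT6. It was 238 ± 109 for EXT10, 201 ± 98.3 for AT5G06630, 149 ± 26.2 for EXT4, 46.5 ± 17.7 for AT1G26240 and 17.7 ± 5.64 for EXT12. The libraries of each neighbour in this order overlap from AT3G54580 down to EXT4, given the spread between the 2 libraries of each gene. They do not overlap between EXT3 and AT2G43150, AT2G43150 and AT3G54580, EXT4 and AT1G26240, or AT1G26240 and EXT12. All 10 members were higher in replicate 2 than in replicate 1 of wild type control, so this spread is shared, and the order from AT3G54580 down to EXT4 was the same within each of the 2 libraries.

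**Figure D1:**
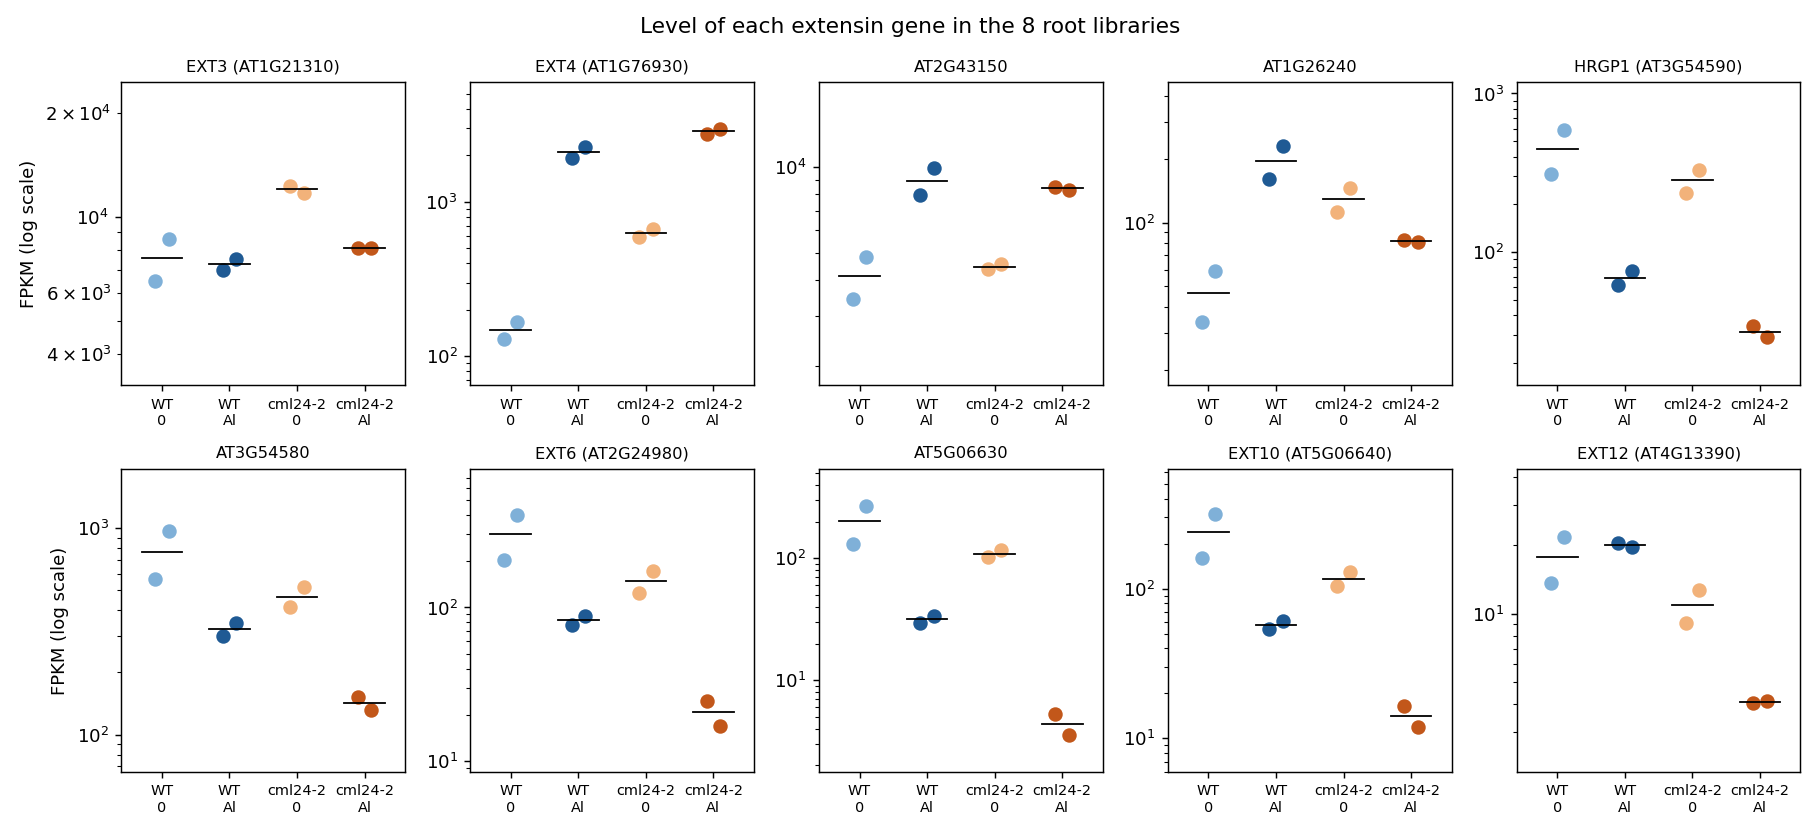
FPKM of each extensin gene (log axis, with its own range in each panel) in the 4 groups, where 0 is no Al, points are libraries and lines are group means. EXT4 rose from 131 and 168 FPKM to 1937 and 2271 with Al in wild type, while AT5G06630 fell to 5.24 and 3.54 in cml24-2 with Al.

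The first comparison asked how extensin transcripts responded to Al in wild type roots. EXT4, AT1G26240 and AT2G43150 rose, HRGP1, AT5G06630, EXT10, EXT6 and AT3G54580 fell, and EXT3 and EXT12 did not pass the test. Thus 3 of the 10 members rose and 5 fell by edgeR's quasi-likelihood test (Benjamini-Hochberg adjusted p under 0.05), where 25.1% of all tested genes rose and 25.9% fell. The median log2 fold change of the members was -0.63, against 0.00 for all tested genes. In bulk roots, fewer cells of a type and less RNA per cell cannot be told apart.

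EXT4, a stress-responsive extensin with few repeats, was at 131 and 168 FPKM in wild type control and at 1937 and 2271 in wild type Al. The Al libraries stood far above both controls. Its log2 fold change was 3.84 ± 0.17 (SE; edgeR adjusted p = 7e-07). AT1G26240, the extensin with the longest proline runs, was at 34.0 and 59.0 FPKM in control and 162 and 232 with Al, again without overlap. Its log2 fold change was 2.11 ± 0.28 (edgeR adjusted p = 0.00023). AT2G43150, a short extensin dense in repeats, was at 3426 and 4815 FPKM in control and at 7929 and 9898 with Al, with no overlap. Its log2 fold change was 1.14 ± 0.19 (edgeR adjusted p = 0.00093).

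The 5 genes that fell are those of the HRGP1 group other than EXT12. HRGP1, a hydroxyproline-rich extensin, was at 311 and 588 FPKM in wild type control and at 61.8 and 76.0 with Al. The groups were apart, and the log2 fold change was -2.68 ± 0.30 (edgeR adjusted p = 9.9e-05). Its neighbour AT3G54580, the longest member, was at 570 and 968 FPKM in control and at 301 and 347 with Al. It fell less in size, with a log2 fold change of -1.22 ± 0.24 (edgeR adjusted p = 0.0024); the difference between these neighbours was not tested.

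AT5G06630 was at 131 and 270 FPKM in wild type control and at 29.7 and 33.7 with Al. EXT10, next to it on the chromosome, was at 161 and 316 in control and at 54.0 and 61.0 with Al. EXT6 was at 204 and 399 in control and at 77.4 and 87.7 with Al. All 3 genes were lower in both Al libraries than in either control library, and the controls of each lay further apart than the Al libraries. Their log2 fold changes were -2.64 ± 0.31 (edgeR adjusted p = 0.00013), -2.03 ± 0.30 (adjusted p = 0.00046) and -1.84 ± 0.32 (adjusted p = 0.0011). Without wild type control replicate 2 they were -1.99, -1.43 and -1.24, and all 3 stayed past the threshold.

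EXT3 was at 6514 and 8633 FPKM in wild type control and at 7000 and 7554 with Al, so the Al libraries lay between the controls. The log2 fold change was -0.03 ± 0.16 (edgeR adjusted p = 0.90), 0.22 without wild type control replicate 2 and 0.04 without wild type Al replicate 1. EXT12, the least abundant member in wild type, was at 13.7 and 21.7 FPKM in control and at 20.5 and 19.6 with Al, which overlap. Its log2 fold change was 0.21 (edgeR adjusted p = 0.46), but -0.13 without wild type control replicate 1 and 0.60 (adjusted p = 0.02) without replicate 2.

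In cml24-2 roots, Al again raised EXT4 and AT2G43150 and lowered the HRGP1 group, EXT12 included, and EXT3 fell as well. In all, 2 of the 10 members rose and 7 fell by edgeR's quasi-likelihood test, where 21.3% of all tested genes rose and 23.3% fell. The median log2 fold change of the members was -1.59, against -0.01 for all tested genes. AT1G26240 did not pass.

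EXT4 was at 591 and 669 FPKM in cml24-2 control and at 2761 and 2975 in cml24-2 Al. The groups were well apart, with a log2 fold change of 2.17 ± 0.16 (edgeR adjusted p = 1.5e-05). AT2G43150 was at 4364 and 4552 in control and at 8484 and 8316 with Al. Its groups did not overlap, and the log2 fold change was 0.89 ± 0.19 (edgeR adjusted p = 0.0045). AT1G26240 was at 112 and 147 in control and at 83.0 and 81.5 with Al. Both Al libraries were below both controls, with a log2 fold change of -0.68 ± 0.26 that missed the threshold (edgeR adjusted p = 0.065); without wild type control replicate 1 or 2 the adjusted p was 0.0098 or 0.0083, and in a fit of the 4 cml24-2 libraries alone it was 0.0039.

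AT5G06630 was at 102 and 117 FPKM in cml24-2 control and at 5.24 and 3.54 with Al. This was the largest fall among the members, with a log2 fold change of -4.66 ± 0.37 (edgeR adjusted p = 2.1e-05). HRGP1 was at 235 and 331 in control and at 34.1 and 29.0 with Al. Its log2 fold change was -3.19 ± 0.31 (edgeR adjusted p = 6.5e-05). EXT10 was at 104 and 130 in control and at 16.4 and 12.0 with Al, and EXT6 was at 123 and 173 in control and at 24.4 and 17.0 with Al. Both were lower in each Al library than in either control, with log2 fold changes of -3.06 ± 0.32 (edgeR adjusted p = 8.9e-05) and -2.86 ± 0.33 (adjusted p = 0.00017).

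AT3G54580 was at 414 and 517 FPKM in cml24-2 control and at 152 and 132 with Al. The log2 fold change was -1.73 ± 0.24 (edgeR adjusted p = 0.00049). EXT12 was at 9.08 and 12.7 in control and at 4.02 and 4.12 with Al, with no overlap. Its log2 fold change was -1.44 (edgeR adjusted p = 0.0021). EXT3 was at 12229 and 11738 in control and at 8117 and 8091 with Al. The groups were apart, with a log2 fold change of -0.59 ± 0.16 (edgeR adjusted p = 0.015). That call was lost without cml24-2 Al replicate 1 (adjusted p = 0.072), without cml24-2 Al replicate 2 (0.075), without cml24-2 control replicate 1 (0.065) and in limma on log2(FPKM + 1) (0.087).

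**Figure D2:**
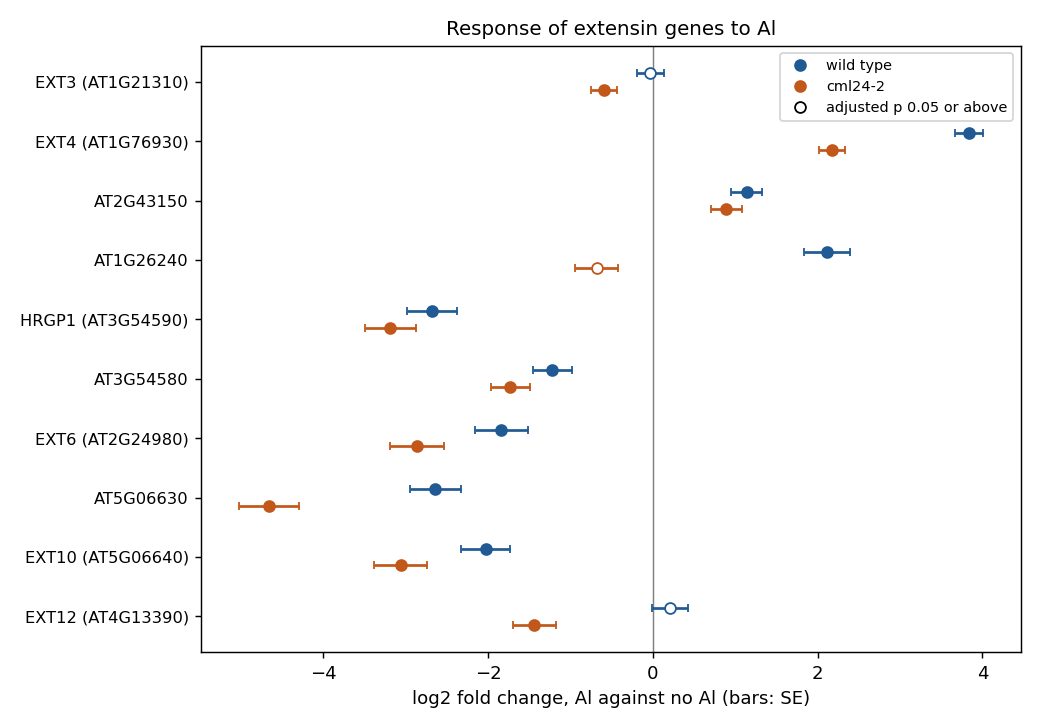
Log2 fold change of each extensin gene with Al against no Al, in wild type (blue) and cml24-2 (orange), with SE bars and open symbols where the edgeR adjusted p was 0.05 or above. EXT4 is at 3.84 and 2.17, AT5G06630 at -2.64 and -4.66, and AT1G26240 changes sign between genotypes.

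The interaction term asked whether the Al response differed between genotypes. It was negative for all 10 members, which means a lower log2 response in cml24-2 than in wild type, with a median of -1.03 against -0.02 for all tested genes. It passed for EXT4 and AT1G26240 only. That is 2 of 10 lower and 0 higher by edgeR, where 0.202% of all tested genes were lower and 0.0987% were higher. At an unadjusted p under 0.05, edgeR gave 7 lower and 0 higher, and DESeq2 called 3 lower and 0 higher.

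The interaction of EXT4 was -1.68 ± 0.22 on the log2 scale (edgeR adjusted p = 0.020), so its response was smaller in cml24-2. The cml24-2 controls already stood above the wild type controls, and the levels with Al lay closer together, as given above. For AT1G26240 the interaction was -2.79 ± 0.38 (edgeR adjusted p = 0.024), with a rise in wild type and lower values in cml24-2. Both calls were lost without any 1 of 6 libraries. Without wild type Al replicate 1 or 2 the adjusted p was 0.065 or 0.11 for EXT4 and 0.065 or 0.12 for AT1G26240. Without cml24-2 control replicate 1 or 2 it was 0.062 or 0.087 for EXT4 and 0.062 or 0.094 for AT1G26240. Without cml24-2 Al replicate 1 or 2 it was 0.11 in both cases for EXT4 and 0.12 or 0.14 for AT1G26240. The interaction itself stayed between -1.80 and -1.55 for EXT4 and between -3.04 and -2.49 for AT1G26240 in these fits.

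For the other 8 members the interaction did not pass. It was -2.03 ± 0.46 for AT5G06630 (edgeR adjusted p = 0.13) and -1.64 ± 0.34 for EXT12 (adjusted p = 0.099). Over all alternative fits the interaction of AT5G06630 ran from -2.67 without wild type control replicate 2 to -1.53 without replicate 1. That of EXT12 ran from -2.04 to -1.28 in the same fits. The interaction ran from -1.64 to -0.57 for EXT10 and from -1.62 to -0.55 for EXT6, lowest without wild type control replicate 2. EXT12 passed in DESeq2 (adjusted p = 0.005). By the ratio of their FPKM, the wild type control libraries differed more than the libraries of any other group for these 4 genes. The interaction of EXT3 was -0.56 ± 0.23 (edgeR adjusted p = 0.37), and those of HRGP1, AT3G54580, EXT6, EXT10 and AT2G43150 ran from -1.04 to -0.25.

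Without Al, cml24-2 roots held more EXT4, AT1G26240 and EXT3 transcript than wild type roots. These were 3 of 10 members, where 7.41% of all tested genes were higher in cml24-2. No member was lower by edgeR (5.5% of all tested genes were), with 6 lower at an unadjusted p under 0.05 and 0 by DESeq2. EXT4 was higher by a log2 difference of 2.12 ± 0.16 (edgeR adjusted p = 0.00024), and AT1G26240 by 1.52 ± 0.27 (adjusted p = 0.0092). EXT3 was higher by 0.70 ± 0.16 (edgeR adjusted p = 0.024). In each of the 3 genes both cml24-2 control libraries were above both wild type control libraries.

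Single libraries bear on these calls. AT1G26240 lost its call without cml24-2 control replicate 2 (edgeR adjusted p = 0.056). EXT3 lost it without cml24-2 control replicate 1 (0.11) or 2 (0.076), without wild type control replicate 1 (0.069), in a fit of the 4 control libraries alone (0.14) and in limma on log2(FPKM + 1) (0.10). Without wild type control replicate 1, the 6 genes of the HRGP1 group had log2 differences of -1.46 to -1.02. The weakest differences over all alternative fits were -0.08 for HRGP1, -0.20 for AT5G06630 and -0.23 for AT3G54580. They were -0.27 for EXT12, -0.39 for EXT6 and -0.40 for EXT10. With all libraries, their log2 differences were -0.99 to -0.64, and their adjusted p-values ran from 0.053 (EXT10) to 0.17 (HRGP1).

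With Al, AT1G26240 and the 6 genes of the HRGP1 group were lower in cml24-2 than in wild type. Of the 10 members 7 were lower in cml24-2 than in wild type, where 3.39% of all tested genes were, and 0 were higher, where 4.63% were. At an unadjusted p under 0.05 edgeR gave 1 higher member, DESeq2 gave 0 higher and 6 lower, and the log2 difference of EXT4 was 0.44 ± 0.15 (edgeR adjusted p = 0.12). AT5G06630 was lower by a log2 difference of -2.87 ± 0.36 (edgeR adjusted p = 0.0042) and EXT12 by -2.30 ± 0.25 (adjusted p = 0.0027). EXT10 was at -2.03 ± 0.31 (adjusted p = 0.0075) and EXT6 at -2.01 ± 0.33 (adjusted p = 0.0098). AT1G26240 was at -1.28 ± 0.27 (edgeR adjusted p = 0.024), AT3G54580 at -1.20 ± 0.24 (adjusted p = 0.021) and HRGP1 at -1.15 ± 0.29 (adjusted p = 0.047). The 6 genes of the HRGP1 group had differences of the same sign without Al, and their interaction did not pass, so a change of the genotype difference with Al is not shown for them. In all 7 genes both cml24-2 Al libraries were below both wild type Al libraries. EXT3 (log2 difference 0.14, adjusted p = 0.63) and AT2G43150 (-0.10, adjusted p = 0.79) did not pass.

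Only AT5G06630 and EXT12 among these 7 kept their call without each library in turn. Without wild type Al replicate 1 or 2 the edgeR adjusted p was 0.074 or 0.17 for AT1G26240, 0.10 or 0.14 for AT3G54580, 0.061 or 0.068 for EXT10, 0.070 or 0.080 for EXT6 and 0.15 or 0.23 for HRGP1. Without cml24-2 Al replicate 2 it was 0.14 for AT1G26240, 0.14 for AT3G54580, 0.071 for EXT10, 0.084 for EXT6 and 0.24 for HRGP1. Without cml24-2 Al replicate 1 it was 0.13 for AT1G26240, 0.096 for AT3G54580 and 0.16 for HRGP1. HRGP1 also lost its call without cml24-2 control replicate 1 or 2 (0.056 each), with RLE size factors (0.051) and in DESeq2 (adjusted p = 0.069). EXT4 passed without wild type control replicate 1 (0.035) or 2 (0.032).

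**Figure D3:**
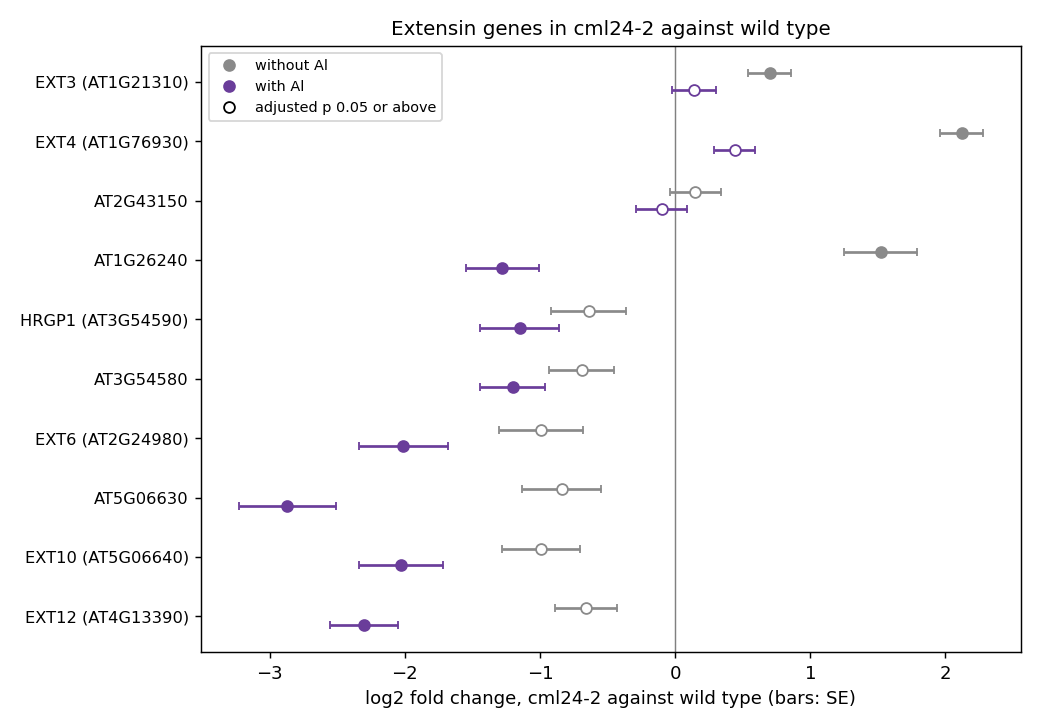
Log2 difference of each extensin gene between cml24-2 and wild type, without Al (grey) and with Al (purple), with SE bars and open symbols where the edgeR adjusted p was 0.05 or above. Without Al the filled symbols are EXT3, EXT4 and AT1G26240, all to the right of 0; with Al the 7 filled symbols are all to the left, from -2.87 to -1.15.

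The balance between members shifted within each library. EXT3 was 49.9 and 51.5 times EXT4 by FPKM in wild type control, 20.7 and 17.6 times in cml24-2 control, 3.61 and 3.33 times in wild type Al, and 2.94 and 2.72 times in cml24-2 Al. AT2G43150 stood below EXT3 in the 4 control libraries, at 0.36 to 0.56 times its FPKM, and above it in the 4 Al libraries, at 1.03 to 1.31 times. HRGP1 was 0.545 to 0.640 times its neighbour AT3G54580 in the control libraries and 0.205 to 0.224 times with Al, in both genotypes. AT5G06630 was 0.815 to 0.983 times EXT10 without Al, 0.551 and 0.552 times in wild type Al, and 0.320 and 0.296 times in cml24-2 Al. None of these ratios overlapped between the control and Al libraries. Summed over the HRGP1 group, FPKM was 1391 and 2563 in wild type control, 544.5 and 625 in wild type Al, 987 and 1280 in cml24-2 control, and 236 and 197.5 in cml24-2 Al. Summed over all 10, it was 11495 and 16238 in wild type control and 17573 to 20581 in the 6 other libraries, with no overlap between control and Al in either genotype. By summed expected counts the order differed: 237094 and 338645 in wild type control, 319955 and 364820 in wild type Al, 361245 and 364508 in cml24-2 control, and 349161 and 346101 in cml24-2 Al. Al libraries were thus higher than controls by FPKM in both genotypes, but in cml24-2 they were lower by counts, where long transcripts weigh more, and in wild type the counts overlapped.

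**Figure D4:**
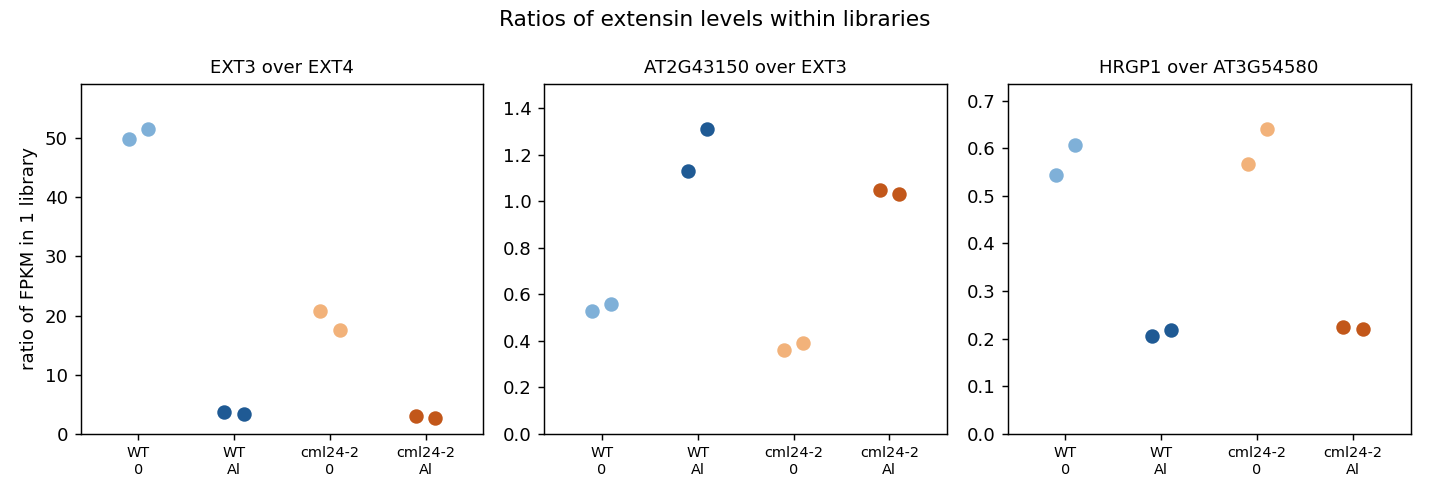
Ratio of FPKM of a pair of extensin genes within each library (linear axes from 0), for EXT3 over EXT4, AT2G43150 over EXT3 and HRGP1 over AT3G54580; points are libraries and 0 is no Al. The Al libraries lie below the control libraries for EXT3 over EXT4 and HRGP1 over AT3G54580, and above them for AT2G43150 over EXT3.

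With Al, overlapping genes changed by amounts near those of their member. AT1G21313 was at 15638 to 28849 FPKM, first or second among all genes in each library, and its log2 differences were 0.02 with Al in wild type, -0.57 with Al in cml24-2 and 0.70 between genotypes without Al. With its counts added to those of EXT3 as an alternative chosen after the data had been seen, the values were -0.01, -0.58 and 0.70, and the calls were the same as for EXT3 alone. AT5G06645 changed by -1.93 in wild type and -2.84 in cml24-2 with Al. Between genotypes it was at -0.41 without Al (edgeR adjusted p = 0.37) and at -1.32 with Al (adjusted p = 0.028). EXT10 alone was at -0.99 and -2.03, so the genotype differences of this pair were less alike. With the counts of AT5G06645 added, EXT10 changed by -1.96 in wild type and -2.88 in cml24-2, and the difference between genotypes with Al was -1.48 (edgeR adjusted p = 0.018).

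Across the 8 libraries, Pearson's r of log2 CPM between members is given as a description, since libraries of a group share a treatment. HRGP1, AT3G54580, EXT6, AT5G06630 and EXT10 had r of 0.957 to 0.999 with each other, EXT12 had 0.60 to 0.795 with them, and EXT4 had 0.908 with AT2G43150 and -0.903 with HRGP1. EXT3 had r between -0.252 and 0.346 with the other members. The genes outside the set with the highest r with EXT3, over n = 8 libraries, were OTP51 (0.976), the overlapping AT1G21313 (0.972), ROS3 (0.966), AT1G11960 (0.966) and AT1G12830 (0.961). Those with the highest r with the mean profile of the other 9 members were AT5G38930 (0.963), BCA4 (0.959), AT1G53070 (0.938), RECQ4A (0.934) and COX15 (0.931).

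Other genes of the extensin pathway were read from lists by function. For scale, 25.1% of all tested genes rose and 25.9% fell with Al in wild type, and 21.3% rose and 23.3% fell in cml24-2. Of 10 further extensin genes, 8 were tested, and 6 fell and 0 rose with Al in wild type (median log2 fold change -2.64), while 7 fell and 0 rose in cml24-2 (median -3.20). EXT13 (AT5G35190) was at 70.1 and 125 FPKM in wild type control, 5.90 and 9.28 in wild type Al, 26.4 and 37.4 in cml24-2 control, and 0.14 and 0.21 in cml24-2 Al. The groups stood in the same order as for AT5G06630, and its log2 fold changes with Al were -3.66 and -7.48 (edgeR adjusted p = 2.8e-05 and 2.2e-05). AT4G08400 and AT4G08410, whose promoter windows share the 16-base word, changed by -2.93 and -2.77 in wild type and by -4.83 and -4.50 in cml24-2. AT1G26250, next to AT1G26240 by number, was at 1034 to 3670 FPKM and changed by -0.70 in wild type (adjusted p = 0.056) and by -1.62 in cml24-2 (adjusted p = 0.0014). Between genotypes with Al, 4 of the 8 were lower in cml24-2 and 0 higher, against 3.39% and 4.63% of all tested genes. They were EXT13 (log2 difference -5.40), AT4G08400 (-2.58), AT4G08410 (-2.38) and AT4G08380 (-2.29). Without Al, 2 were lower and 0 higher, where 5.5% of all tested genes were lower. These were EXT13 (-1.58, edgeR adjusted p = 0.01) and AT4G08380 (-1.96, adjusted p = 0.017). EXT11 is not listed in any library and was taken as 0.

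Of the leucine-rich repeat extensins, which join an extensin part to a domain that binds peptide signals in the wall, 6 were tested. With Al in wild type 1 rose and 4 fell, and in cml24-2 0 rose and 2 fell. LRX1, which acts in root hairs, changed by -2.72 in wild type and -2.38 in cml24-2, and LRX3 rose by 1.57 in wild type (edgeR adjusted p = 0.0036) and was at 0.81 in cml24-2 (adjusted p = 0.071). The list's median was -0.69 in wild type and -0.35 in cml24-2.

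Of 12 tested enzymes that hydroxylate or glycosylate extensins, 2 rose and 5 fell with Al in wild type (median -0.30), and 3 rose and 2 fell in cml24-2 (median 0.04). The counts in cml24-2 lie near the shares of all tested genes, 21.3% and 23.3%. In wild type those shares were 25.1% and 25.9%. The prolyl hydroxylase AT-P4H-1 rose by 0.53 in wild type and 0.55 in cml24-2. AT2G25260 fell by 1.51 and 0.99, and AT3G01720, the serine galactosyltransferase, fell by 1.18 and 0.66. RRA1, an arabinosyltransferase, was at -0.63 in wild type (edgeR adjusted p = 0.16).

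Of 8 tested wall peroxidases, the enzyme class that links extensins, 2 rose and 6 fell in wild type (median -2.49), and 2 rose and 5 fell in cml24-2 (median -3.15). PRXCB rose by 3.73 and 3.32 on the log2 scale. AT1G30870 changed by -4.06 and -4.02, AT4G26010 by -3.73 and -3.34, and AT1G44970 by -3.37 and -3.22, all past the threshold.

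Root hair cell genes were also lower with Al. Of 12 tested root hair genes, 11 fell and 0 rose with Al in each genotype (median -2.59 in wild type, -2.48 in cml24-2), with 7 lower and 0 higher in cml24-2 without Al. Of all tested genes, 5.5% were lower and 7.41% higher in cml24-2 without Al. Summed FPKM of the 12 hair genes was 314 and 402 in wild type control, 61.4 and 67.4 in wild type Al, 195 and 237 in cml24-2 control, and 65.4 and 64.7 in cml24-2 Al. With Al this sum overlapped between the 2 genotypes, and the sum over the HRGP1 group was lower in cml24-2. CSLD3 alone made up 18.0 and 20.0 FPKM of the hair gene sum in wild type Al and 35.2 and 33.0 in cml24-2 Al. Of the 12 hair genes with Al, 2 were lower in cml24-2 and 1, CSLD3, was higher. The 2 lower genes were PRP1 (log2 difference -3.58, edgeR adjusted p = 0.0099) and PRP3 (-1.11, adjusted p = 0.042). CSLD3 was at 0.83 (edgeR adjusted p = 0.013). The median log2 difference of the 12 hair genes was -0.54. With Al, 3.39% of all tested genes were lower in cml24-2 and 4.63% higher. EXT12 did not pass with Al in wild type. SHV2, a protein needed for hair growth, changed by -4.12 and -3.57, and RHD6, a regulator of hair fate, by -1.35 and -1.20. Of 3 non-hair epidermis genes, 2 fell in wild type and 3 in cml24-2, with summed FPKM of 30.0 to 37.2 without Al and 12.0 to 13.6 with Al. The part of changed hair or epidermis content in the extensin results was not tested.

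**Figure D5:**
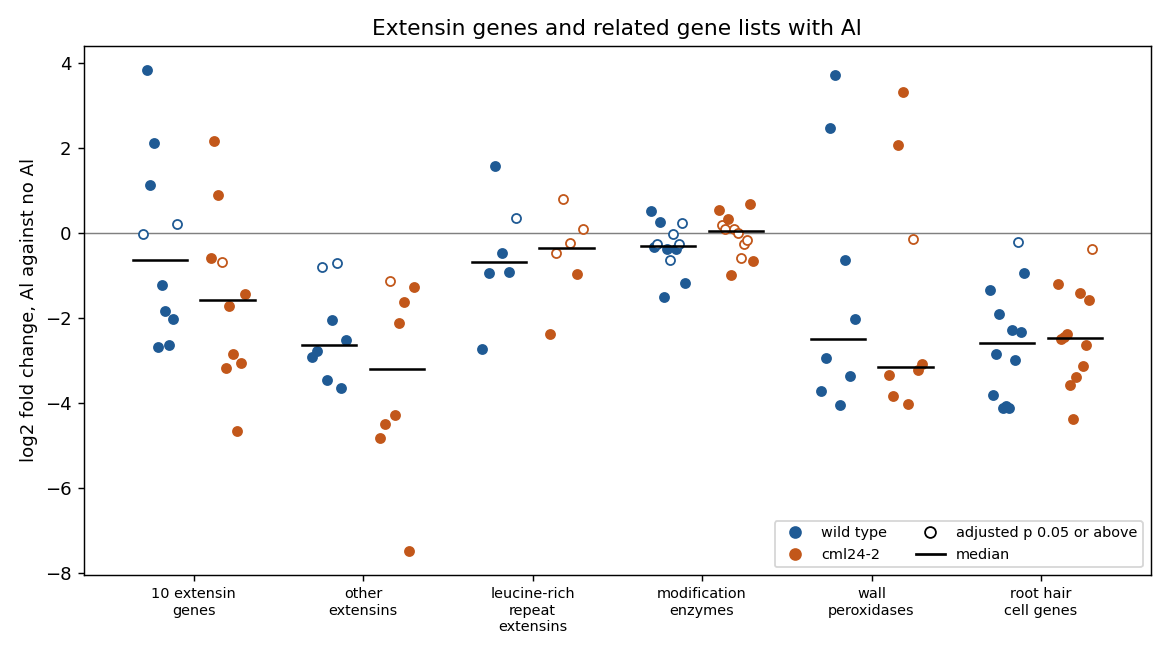
Log2 fold change with Al against no Al of the 10 extensin genes and of the tested genes of 5 related lists, in wild type (blue) and cml24-2 (orange). Points are genes, open where the edgeR adjusted p was 0.05 or above, and lines are medians, which lie at -2.64 and -3.20 for the other extensins and at -2.59 and -2.48 for the root hair genes.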

How the data were processed

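Per the labels' protocols, root RNA was extracted with a column kit and sequenced on the BGISEQ-500 platform. The authors deposited 1 table per library with expected counts and FPKM per gene, and RSEM is named in the submitters' processing notes. Not given in the sources used here were the aligner, tool versions, genome build and strandedness. Listed lengths equal the RefSeq TAIR10.1 transcript length for 12097 of 12097 genes with 1 transcript, so coordinates are those of that assembly, and 24086 of 24279 identifiers matched it. Between 89.1% and 89.5% of the deposited expected counts were whole within 0.005, and each of the 10 members was fractional in some library. Expected counts were rounded, filtered by group and tested in 1 fit of 8 libraries (TMM factors 0.984 to 1.03) with edgeR 4.0.16, limma 3.58.1 and R 4.3.3, Benjamini-Hochberg adjusted over 20262 genes, with DESeq2 1.42.0 as an alternative. Residual degrees of freedom were 4, and the biological coefficient of variation was 11%. Fits were tested on simulated data. Proteins and promoters were aligned with Biopython 1.88.

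Members and lists were chosen with earlier results of these data known, and the 6 genes of the HRGP1 group were put together after their values were seen. All 10 members are named, with up to 4 genes per list by size of response in wild type, any root hair or further extensin gene, and the 5 genes most like EXT3 or the mean profile among genes with a mean of at least 5 CPM.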

Additional observations from a re-analysis of the deposited data

Results flagged for a closer look

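The Al response differed between genotypes by the interaction term for 2 members. For EXT4 the difference, cml24-2 minus wild type, was -1.68 on the log2 scale, and for AT1G26240 it was -2.79. The part of single libraries in these calls is given with the interaction above.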

How the results depend on the processing

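The rise or fall with Al in wild type kept its direction and call for the 8 members past the threshold under all 18 alternatives, as did 8 of the 9 calls in cml24-2, EXT3 being the exception. Replicate numbers do not pair the samples (correlations of deviations between groups -0.17 to 0.14). With the replicate number as a block, 1 member (EXT4) in place of 0 was higher in cml24-2 with Al (adjusted p = 0.045), and AT1G26240 fell with Al in cml24-2 (adjusted p = 0.022). A fit of only the libraries compared also gave 1 higher with Al. Leaving out each library in turn, members higher in cml24-2 without Al numbered 1 to 3 and lower 0 to 6, members higher with Al numbered 0 to 1 and lower 2 to 7, and members with a lower interaction numbered 0 to 6. Log2 values of members without a call that changed sign ranged from -0.26 to 0.22 (EXT3, Al in wild type) and from -0.13 to 0.60 (EXT12, Al in wild type, past the threshold at 0.60). For AT2G43150 they ranged from -0.14 to 0.45 (genotype without Al), -0.27 to 0.08 (genotype with Al) and -0.55 to 0.04 (interaction). The cause was not tested.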
